A study of Homo sapiens with 12 samples.

Results

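SKA2 hairpin 2 is 1 of 3 short hairpin RNAs used in this series to lower SKA2 in SNU638 cells, a human line established from gastric cancer. Its line, labelled sh-SKA2-2, was compared with the line labelled sh-control by the library names in the deposited table, with 3 libraries a side of 12 in all. The labels give the control as wild type and the hairpin line as an SKA2 knockdown, and every line, the control included, was made with lentivirus and puromycin selection, which the labels describe as a choice of resistant clones. The study looked for genes under the control of SKA2, and polyadenylated RNA was sequenced on a BGISEQ-500 instrument. The lines with hairpin 1 (sh-SKA2-1) and hairpin 3 (sh-SKA2-3), also 3 libraries each, serve below only to show where hairpin 2 differs. There is 1 line for each hairpin, so an effect of hairpin 2 and a property of the line that carries it cannot be told apart. No label states that same-line libraries are separate cultures, so the p-values reflect how these libraries vary, and that variation may be technical.

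SKA2 encodes a subunit of the SKA complex, which it forms with SKA1 and SKA3. The complex binds microtubules and the NDC80 complex at the outer kinetochore, the structure that ties each chromosome to the mitotic spindle, and helps chromosomes stay attached as microtubules shorten. Genes for mitosis are mostly transcribed in G2 and M phase, and are controlled by the DREAM complex, a repressor, and by the activators B-MYB and FOXM1. Genes for DNA replication are mostly transcribed at the start of S phase under E2F factors. The levels of both groups in bulk RNA therefore depend on how many cells are cycling as well as on the RNA in each cell, and these cannot be told apart here.

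Each library held 1.47e+07 to 1.67e+07 expected counts, and 12868 of 17303 genes were tested. Levels are in CPM, read counts scaled to the size of the library. Differences are log2 fold changes of hairpin 2 minus control with their standard error (SE), and a gene was called at an adjusted p under 0.05 by the quasi-likelihood test of edgeR, with p-values adjusted after Benjamini and Hochberg over all genes tested. With hairpin 2, 9574 genes were called (74.4%), of which 4712 rose (36.6% of those tested) and 4862 fell (37.8%). The 3 hairpin 2 libraries lay above all 3 control libraries for 38.2% of genes and below them for 38.8%. At least 2-fold, 1891 rose (14.7%) and 1658 fell (12.9%). On the scale of log2(TPM + 1) with limma, the split was 6814 higher and 2694 lower, and the median of all genes moved up by 0.33 against -0.02 in counts. With calls this common, a share of a gene list is read below against 36.6% and 37.8%.

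Long and short transcripts moved apart in this comparison. With genes split by transcript length into 5 groups of about equal number, the median log2 difference was -0.61 in the shortest group (median length 1030 bp) and 0.68 in the longest (median 6554 bp). Of the shortest group 66.8% fell and 10.2% rose, and of the longest 12.6% fell and 65.2% rose. For each library, log2 CPM minus the gene's mean over all 12 libraries was fitted on log2 transcript length. This slope, which is relative to the other libraries, was -0.056, -0.243 and -0.324 in the control libraries. With hairpin 2 it was 0.152, 0.179 and 0.206, so control and hairpin 2 did not overlap. The same medians were -0.15 and 0.16 against hairpin 1 and -0.41 and 0.43 against hairpin 3. A second fit took each library's length trend out as an offset, after which the medians of the 5 length groups lay between -0.11 and -0.07. What made the length trend was not tested, and the median from that second fit (length-adjusted) is given beside most gene lists. The length-adjusted fit called 4159 genes higher (32.3%) and 5300 lower (41.2%).

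**Figure D1:**
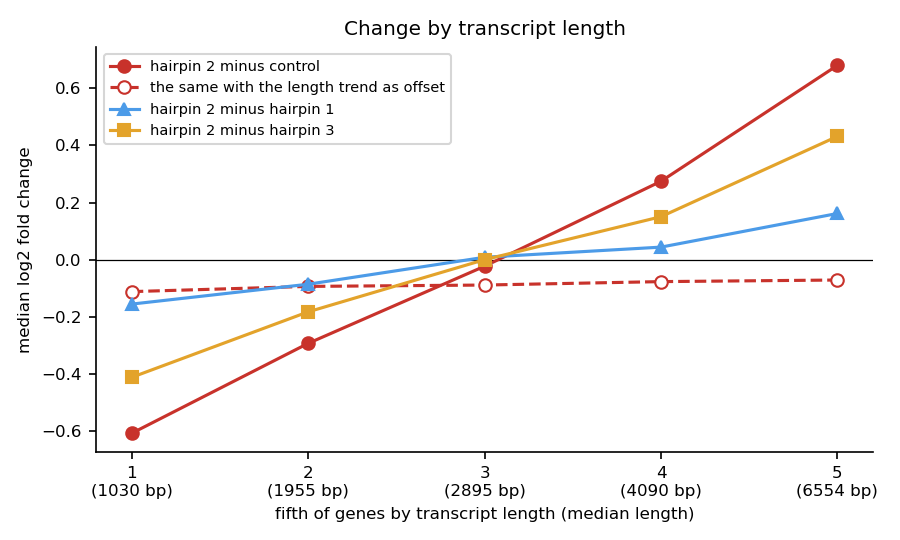
Median log2 fold change (vertical axis) over 5 groups of the tested genes ordered by transcript length (horizontal axis, median length in bp), for hairpin 2 against control, hairpin 1 and hairpin 3, and against control with the length trend as an offset (open points). The median against control goes from -0.61 in the shortest group to 0.68 in the longest, and with the offset it stays between -0.11 and -0.07.

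Of the gastric epithelial markers, EPCAM, KRT8, KRT18 and KRT19 stood at 175 CPM or more in all 6 libraries, while CDH1 stood at 4.40 to 4.69 CPM in control and 1.65 to 3.09 CPM with hairpin 2, and CLDN4 at 0.388 to 1.08 and 0.193 to 0.989 CPM. Summed marker levels of other cell types were 8.23 to 9.08 CPM in control and 2.88 to 5.30 CPM with hairpin 2 for 15 leukocyte genes, and 37.7 to 52.1 against 14.4 to 15.5 CPM for 11 endothelial genes. For 9 fibroblast genes they were 7.22 to 8.79 against 7.37 to 8.98 CPM. The highest sums were those of 12 neuronal and endocrine genes, at 360 to 403 CPM in control and 246 to 254 CPM with hairpin 2. Only 6 of these 12 were tested, of which 2 rose and 2 fell, with log2 differences from -1.01 to 2.94. No gene of these lists was at 0 in all 12 libraries of the series, and the part of other cell types in the results was not tested.

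All 3 subunits of the SKA complex fell with hairpin 2. SKA2 (chromosome 17, 59109951 to 59155269, minus strand, GRCh38) stood at 126, 119 and 117 CPM in control and at 23.3, 25.3 and 27.2 CPM with hairpin 2. The difference was -2.25 ± 0.08 (SE; edgeR adjusted p = 1.98e-09), and its level with hairpin 2 differed from that with hairpin 1 by 0.07 ± 0.08 and from that with hairpin 3 by -0.07 ± 0.08 (adjusted p = 0.473 and 0.452). SKA1 (chromosome 18, 50374995 to 50394173, plus strand) went from 78.2, 82.5 and 78.8 to 18.8, 18.4 and 20.03 CPM, a difference of -2.07 ± 0.07. SKA3 (chromosome 13, 21153595 to 21176602, minus strand) went from 86.8, 85.3 and 84.1 to 21.8, 18.8 and 20.7 CPM, a difference of -2.06 ± 0.07. For SKA1 and SKA3 the hairpin 2 libraries lay below all 9 others, although SKA2 itself was not called different between hairpin 2 and either of them. The mean of SKA3 was 72.3 ± 2.69 CPM (SD, n = 3) with hairpin 1 and 84.3 ± 1.21 CPM with hairpin 3. That of SKA1 was 42.4 ± 1.66 and 49.7 ± 3.62 CPM. SKA1 was thus also lower than control with hairpin 1 (-0.91, edgeR adjusted p = 1.97e-06) and hairpin 3 (-0.68, adjusted p = 1.72e-05).

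PRR11, a cell cycle gene that lies head to head with SKA2 (chromosome 17, 59155499 to 59204705, plus strand), stood at 118, 94.7 and 82.4 CPM in control and at 67.8, 62.6 and 70.8 CPM with hairpin 2. The difference was -0.55 ± 0.16 (edgeR adjusted p = 0.00678), but on the log2(TPM + 1) scale it was 0.075 with an adjusted p of 0.8, and with the length trend as an offset it was -1.11.

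The outer kinetochore list holds SKA1, SKA2 and SKA3 and 14 other genes. Of all 17 tested 15 fell and none rose, with a median of -1.28 (length-adjusted -1.07) against -0.02 over all genes tested. NDC80, which binds the microtubule, went from 58.8, 56.2 and 55.6 to 17.7, 18 and 16.7 CPM, or -1.70 ± 0.07. Its partners NUF2 (-1.84), SPC24 (-1.89) and SPC25 (-1.54) and the adaptor ZWINT (-1.45) also fell. The scaffold KNL1 did not pass the test (-0.01 ± 0.24, adjusted p = 0.958), with control libraries from 42.4 to 67.1 CPM around the 48.0 to 56.5 CPM of hairpin 2. KNL1 has a long transcript, and with the length trend as an offset it was -0.94.

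At the inner kinetochore, which marks the centromere, 19 of 22 genes fell and 1 rose (median -0.89, length-adjusted -0.88). CENPA, the histone H3 variant that defines the centromere, went from 36.3, 35.6 and 37.8 to 8.79, 9.84 and 10.5 CPM (-1.91 ± 0.10). HJURP, which loads CENPA onto chromatin, fell by 1.58 on the log2 scale, and CENPN, CENPH and CENPU were at -1.88, -1.93 and -1.72. CENPC, which links CENPA to the outer layer, was the gene that rose, by 0.73 ± 0.09.

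All 17 genes of the spindle checkpoint and chromosomal passenger list fell (median -1.02, length-adjusted -1.15). BIRC5 (survivin), a passenger subunit, went from 184, 227 and 251 to 62.1, 61.5 and 61.7 CPM (-1.84 ± 0.11). AURKB, the passenger kinase, was at -1.73, the separase inhibitor PTTG1 at -1.75 and UBE2C, which feeds ubiquitin to the anaphase-promoting complex, at -1.96. MAD2L1, the checkpoint protein MAD2, was at -1.02 ± 0.06.

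Of 27 genes for mitotic entry, condensation and cytokinesis, 23 fell and none rose (median -1.17, length-adjusted -1.15, with all 27 lower). CDK1, the kinase that starts mitosis, went from 125, 124 and 119 to 44.2, 45.5 and 47.5 CPM (-1.42 ± 0.08). FOXM1, the transcription factor of G2 genes, was at -1.48, the spindle assembly factor TPX2 at -1.45 and PRC1, which bundles the central spindle, at -1.61. The proliferation marker MKI67 did not pass the test against control (-0.15 ± 0.14), while it was lower than with hairpin 1 (-0.91) and hairpin 3 (-0.77), and it was at -1.21 with the length trend as an offset. Of 12 mitotic kinesins 10 fell (median -1.23, length-adjusted -1.29), led by KIF2C, a microtubule depolymerase at centromeres, at -1.97 ± 0.07.

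S phase genes fell as well. Of 43 DNA replication genes 42 fell, and the kinase CDC7 did not pass the test (-0.19 ± 0.12, and -0.27 with an adjusted p of 0.0203 with the length trend as an offset). The median was -0.86 (length-adjusted -0.97). CDC45 (chromosome 22, 19479459 to 19520612, plus strand), a subunit of the replicative helicase, went from 98.3, 106 and 112 to 23.8, 23 and 21.2 CPM (-2.22 ± 0.09). The helicase subunit MCM3 was at -1.31, the loading factors CDT1 and CDC6 at -1.86 and -1.10, the primase PRIM1 at -1.58 and the sliding clamp PCNA at -1.21. Of 15 genes for nucleotide supply 11 fell and 1 rose (median -0.74, length-adjusted -1.20). TK1, the S phase thymidine kinase, went from 227, 306 and 340 to 55.2, 56.1 and 58.1 CPM (-2.37 ± 0.15), and TYMS, which makes thymidylate, was at -1.83 ± 0.07. RRM2B, the ribonucleotide reductase subunit used outside S phase, was the one that rose (0.89 ± 0.21), and the S phase subunit RRM2 fell (-1.49 ± 0.10).

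Of 28 genes of homologous recombination and Fanconi repair, 22 fell and 2 rose (median -0.95, length-adjusted -0.95). FANCI, a partner of FANCD2, went from 216, 201 and 194 to 53.1, 49.6 and 51.2 CPM (-1.99 ± 0.07). RAD54L, a recombination gene, was at -1.66 and the checkpoint kinase CHEK1 at -1.24, while FANCM (1.18) and FANCL (0.39) rose.

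**Figure D2:**
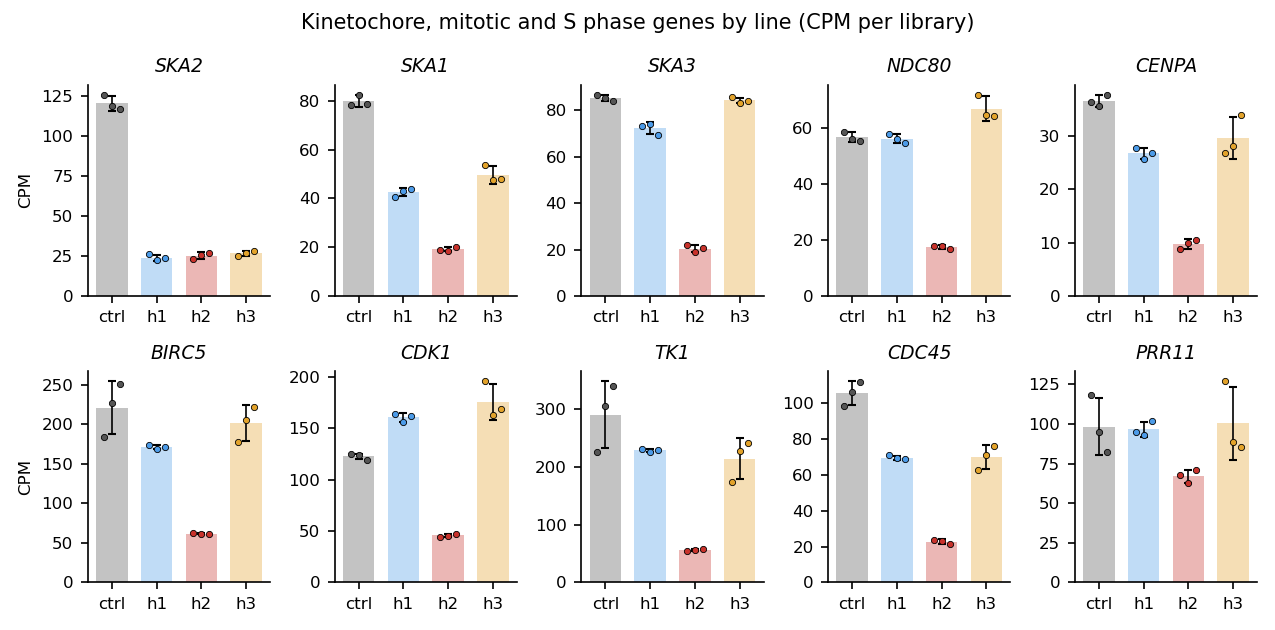
Levels in CPM (vertical axes, starting at 0) of 10 kinetochore, mitotic and S phase genes in the control line (ctrl) and the lines with hairpin 1, 2 and 3 (h1, h2, h3). Points are libraries, bars the mean of 3 and whiskers the SD, and for every gene except SKA2 the 3 hairpin 2 libraries lie below the 9 others.

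These cell cycle groups were lower with hairpin 2 than with the other hairpins, in contrasts that do not use the control mean. The medians of hairpin 2 minus hairpin 1 and minus hairpin 3 were -0.88 and -1.0 for the outer kinetochore, -1.31 and -1.48 for the checkpoint, -1.21 and -1.35 for mitotic entry and -0.93 and -0.86 for DNA replication. All 27 mitotic entry genes and 41 of 43 replication genes were called lower than with hairpin 1 and also than with hairpin 3, where 25% of all genes tested were. On the log2(TPM + 1) scale, where the median of all genes was 0.33, medians against control were -0.81 for the outer and -0.36 for the inner kinetochore, -0.57 for the checkpoint, -0.70 for mitotic entry and -0.74 for kinesins. On that scale they were -0.41 for DNA replication, -0.37 for nucleotide supply and -0.52 for repair. Against control in counts, the medians of the outer kinetochore, checkpoint, mitotic entry and replication lists were 0.14, 0.08, 0.33 and 0.10 with hairpin 1 and 0.22, 0.30, 0.31 and 0.01 with hairpin 3.

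Promoters of these genes were searched for the letters of 5 motifs on both strands, over the 250 bases before each RefSeq start (GRCh38.p14), which matched 10540 of the 12868 genes tested and gave 15381 windows. The motifs were TTTGAA (CHR, the element bound by DREAM and B-MYB at G2 genes), TTTCCCGC or TTTGGCGC (E2F), CCAAT (bound by NF-Y), the ISRE (bound by interferon-activated factors, searched as GAAA, any 2 bases, GAAA) and TGATGNAA (bound by ATF4 with CEBP factors). No motif contains another. TTTGAA was in 9.41% of all windows, in 35 of 100 windows (35%) of the kinetochore, checkpoint, mitotic and kinesin genes and in 7.0% of those of the replication, nucleotide and repair genes. The E2F letters were in 2.85% of all windows, in 6.0% of the mitotic and 17% of the replication windows. CCAAT was in 33.1% of all windows and in 65% and 50% of these 2 sets. Within the mitotic set, the 32 genes with TTTGAA had a median log2 difference of -1.20 and the 48 without it one of -1.11. Medians with and without the motif were -0.85 (5 genes) and -1.17 (75 genes) for E2F in the mitotic set. In the replication set they were -0.62 (7 genes) and -0.91 (67 genes) for CHR, and -0.83 (17 genes) and -0.86 (57 genes) for E2F. For CCAAT they were -1.19 (58 genes) and -0.85 (22 genes) in the mitotic set. In the replication set the CCAAT medians were -0.88 (40 genes) and -0.84 (34 genes). Whether genes with and without a motif differ was not tested. Over all 2595 genes lower than control and both other hairpins, 8.91% of windows held TTTGAA and 3.42% the E2F letters, close to the shares of all windows.

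A few such promoter stretches are shown to let the element be seen beside genes that fell, chosen after their values were known and limited to parts that hold no annotated exon. Each is written 5′ to 3′ on the strand of its gene, with the motif in capitals. The CHR letters stand in HJURP (chr2:233854567-233854785, minus strand), CEP55 (chr10:93496362-93496611, plus strand, with the motif on the opposite strand), a cytokinesis gene at -1.55, and ZWINT (chr10:56361276-56361509, minus strand, motif on the opposite strand). The E2F letters stand in MCM3 (chr6:52284882-52284992, minus strand) and PCNA (chr20:5126627-5126785, minus strand, motif on the opposite strand).
HJURP: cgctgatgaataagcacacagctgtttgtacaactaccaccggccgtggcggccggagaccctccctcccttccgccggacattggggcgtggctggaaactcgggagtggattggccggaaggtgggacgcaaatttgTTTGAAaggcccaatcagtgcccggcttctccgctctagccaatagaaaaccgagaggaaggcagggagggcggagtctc
CEP55: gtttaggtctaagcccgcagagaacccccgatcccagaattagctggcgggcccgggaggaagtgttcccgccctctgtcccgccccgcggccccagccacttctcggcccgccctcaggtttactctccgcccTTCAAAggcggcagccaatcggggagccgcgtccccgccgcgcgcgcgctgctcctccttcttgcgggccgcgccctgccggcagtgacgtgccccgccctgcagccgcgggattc
ZWINT: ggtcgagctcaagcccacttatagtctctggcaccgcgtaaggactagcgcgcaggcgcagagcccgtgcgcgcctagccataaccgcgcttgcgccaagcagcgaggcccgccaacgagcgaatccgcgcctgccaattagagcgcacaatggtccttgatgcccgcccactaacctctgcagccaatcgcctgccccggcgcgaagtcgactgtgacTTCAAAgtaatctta
MCM3: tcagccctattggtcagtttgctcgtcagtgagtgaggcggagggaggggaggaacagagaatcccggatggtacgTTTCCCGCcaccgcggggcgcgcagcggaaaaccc
PCNA: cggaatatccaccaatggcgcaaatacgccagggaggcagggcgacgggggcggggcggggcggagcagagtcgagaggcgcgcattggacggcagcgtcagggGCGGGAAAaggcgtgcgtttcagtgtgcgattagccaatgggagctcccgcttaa

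Regulators of G1 moved in both directions, with the CDK inhibitor genes CDKN2B and CDKN1B and the kinase gene CDK6 rising at least 2-fold. CDKN2B (chromosome 9, 22002903 to 22009363, minus strand), which encodes p15, an inhibitor of CDK4 and CDK6, went from 32.7, 29.5 and 25.8 to 259, 268 and 273 CPM (3.18 ± 0.10, edgeR adjusted p = 5.22e-10). CDKN1B, which encodes the CDK inhibitor p27, went from 45.0, 36.0 and 36.1 to 136, 138 and 144 CPM (1.83 ± 0.09). The groups did not overlap for either gene, and means with hairpin 1 and hairpin 3 were 52.0 and 42.5 CPM for CDKN2B and 37.6 and 36.0 CPM for CDKN1B. CDK6 also rose (2.55 ± 0.19), while CDK4 fell (-1.13 ± 0.11) and CKS1B, a cofactor in the destruction of p27, fell from 166, 217 and 218 to 50.6, 50.9 and 48.4 CPM (-2.0 ± 0.12). CDKN1A, which encodes p21, fell slightly (-0.33 ± 0.07, and -0.09 with the length trend as an offset). With that offset the inhibitor genes CDKN1C, CDKN2D, CDKN2A and CDKN2C were at -0.23, -0.16, 0.14 and 0.70. Over the list of 19 genes, 5 rose and 11 fell (median -0.39, length-adjusted -0.16, and 0.01 on the log2(TPM + 1) scale).

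E2F1 and E2F2, activators of S phase genes, fell by 1.60 and 1.52 on the log2 scale, and RBL2, which encodes the repressor p130, rose by 1.26 ± 0.19. Of that list's 18 genes 5 rose and 7 fell, with a median of 0.09 that was -0.16 length-adjusted. Among 25 p53 targets 11 rose and 11 fell (median -0.01, length-adjusted -0.04, and 0.39 on the log2(TPM + 1) scale). The antiproliferative gene BTG2 went from 11.5, 11.1 and 11 to 49.4, 52.9 and 52.9 CPM (2.21 ± 0.09) and TP53INP1 rose by 2.00, while GDF15 and DDB2 fell by 2.17 and 2.20 on the log2 scale.

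Of the genes with over 3 counts in each group, BMF had the largest rise. It (chromosome 15, 40087890 to 40108892, minus strand) encodes a BH3-only protein that promotes apoptosis by binding BCL2 proteins. It went from 2.53, 2.13 and 1.98 to 138, 136 and 126 CPM (5.91 ± 0.11, edgeR adjusted p = 2.11e-11), and was at 10.6 ± 0.996 CPM with hairpin 1 and 15.6 ± 0.629 CPM with hairpin 3 (SD, n = 3). The 3 hairpin 2 libraries lay above the 9 others. BCL2L11, which encodes the related BIM, rose by 1.41 ± 0.11. These were the 2 of 11 apoptosis initiators that rose, while 6 fell, among them BAX (-1.22) and BID (-0.96), with a median of -0.28 (length-adjusted -0.17) that was 0.16 on the log2(TPM + 1) scale. Of 9 anti-apoptotic genes 5 rose and 3 fell (median 0.44, length-adjusted 0.18). BIRC3, an inhibitor of apoptosis, rose by 1.61 and BCL2A1 fell from 27.4, 32.6 and 34.4 to 2.69, 2.19 and 3.23 CPM (-3.54 ± 0.17), while MCL1 did not pass the test (-0.16 ± 0.11, and -0.42 with an adjusted p of 4.29e-05 with the length trend as an offset).

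Of 17 histone genes measured in polyadenylated RNA, 14 rose and 1 fell (median 1.5, length-adjusted 1.79). H2AC6 went from 4.05, 3.68 and 3.06 to 23.4, 23.4 and 24.7 CPM (2.72 ± 0.19), H2BC12 from 20.1, 26.3 and 27.5 to 73.2, 73.9 and 72.8 CPM (1.57 ± 0.14), and H1-2 rose by 2.08. Most histone messages made in S phase lack a poly(A) tail, so this selection captures a part of them. Near-identical copies of these genes can share reads, which leaves single members uncertain.

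Among the 12 largest rises, after BMF, were genes of varied function at low starting levels. CHST11, a chondroitin sulfotransferase, went from 0.507, 0.129 and 0.447 to 8.39, 9.39 and 8.5 CPM (4.57 ± 0.27). The RNA-binding protein gene CELF6 went from 0.317, 0.259 and 0.447 to 9.26, 7.27 and 6.79 CPM (4.48 ± 0.23) and ZNF608 from 0.570, 0.388 and 0.574 to 9.40, 10.4 and 11.9 CPM (4.35 ± 0.19). THSD7A and TMEM140 rose by 4.59 ± 0.37 and 4.56 ± 0.81. The span of TMEM140 overlaps that of CYREN on the other strand, and whether their exons overlap was not tested. With 3 or fewer counts over the control libraries, the ratio of counts was 99.3 for LRRTM3 (95% counting interval 17.4 to 3965), 34.9 for the calcium-binding gene CALB2 (11.6 to 172) and 32.4 for the chemokine CXCL10 (10.7 to 160). The spans of LRRTM3 and CXCL10 overlap those of CTNNA3 and ART3 on the other strand, and overlap of exons was not tested there either. The readthrough gene PHOSPHO2-KLHL23 had 0 control counts and 219 with hairpin 2, at least 79.7-fold higher against a floor of 3 counts over the group. Its reads are shared with KLHL23, which rose by 0.90 ± 0.24, so its own level is uncertain.

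SLC2A14, also among these rises (4.39 ± 0.36), is a near copy of SLC2A3, and reads can be split between them. SLC2A3, which encodes the glucose transporter GLUT3, itself went from 29.5, 28.8 and 24.9 to 413, 419 and 425 CPM (3.92 ± 0.07, edgeR adjusted p = 2.11e-11), against means of 63.4 CPM with hairpin 1 and 86.3 CPM with hairpin 3. Its libraries did not overlap with any of the 9 others. In the glycolysis and hypoxia list 7 of 29 genes rose and 18 fell (median -0.56, length-adjusted -0.38, and -0.11 on the log2(TPM + 1) scale). GAPDH, ENO1 and PKM fell by 1.07, 1.08 and 0.94 on the log2 scale.

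The largest falls held several genes whose reads are shared with a neighbour. P2RY11, a purinergic receptor gene, had 1113 control counts and 0 with hairpin 2, at least 340-fold lower. It overlaps the readthrough gene PPAN-P2RY11, which did not pass the test (-0.26 ± 0.34), so a change of the message and a change in how reads were shared cannot be told apart. EIF4EBP3 (at least 34.5-fold lower) and CEMP1 (at least 35.4-fold lower) have the same limit through ANKHD1-EIF4EBP3 and AMDHD2. CEMP1 lost its call without control replicate 3 (edgeR adjusted p = 0.0764), and both genes lost it with control replicate 1 as the only control.

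UPP1, which encodes uridine phosphorylase, fell from a high level. It went from 472, 612 and 696 to 22.6, 21.5 and 24.6 CPM (-4.70 ± 0.16, edgeR adjusted p = 8.39e-10), below its means of 74.3 CPM with hairpin 1 and 103 CPM with hairpin 3. The imprinted growth factor gene IGF2 had 307 control counts and 3 with hairpin 2, a ratio of 93.8 (95% counting interval 31.8 to 457), and the ratios of KLHDC7B and the endothelial gene ROBO4 were 75.1 (20.5 to 626) and 30.2 (10.1 to 149). IL1RL1, the receptor for IL-33, was at -4.47 ± 0.19, CCDC198 at -4.33 ± 0.31, and INHBE and ADM2, a secreted activin subunit and a peptide hormone, at -4.58 ± 0.22 and -4.19 ± 0.16. MCAM, a cell adhesion molecule, fell from 4.43, 24.6 and 37.0 to 0.336, 0.386 and 0.198 CPM (-6.13 ± 1.04), with control libraries far apart and an overlap with CBL on the other strand. IL1RL1 shares part of its span with IL18R1 on the same strand. KLHDC7B, ROBO4, INHBE and ADM2 were not called different from either other hairpin, while UPP1, IGF2 and CCDC198 were called lower than with each of them.

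**Figure D3:**
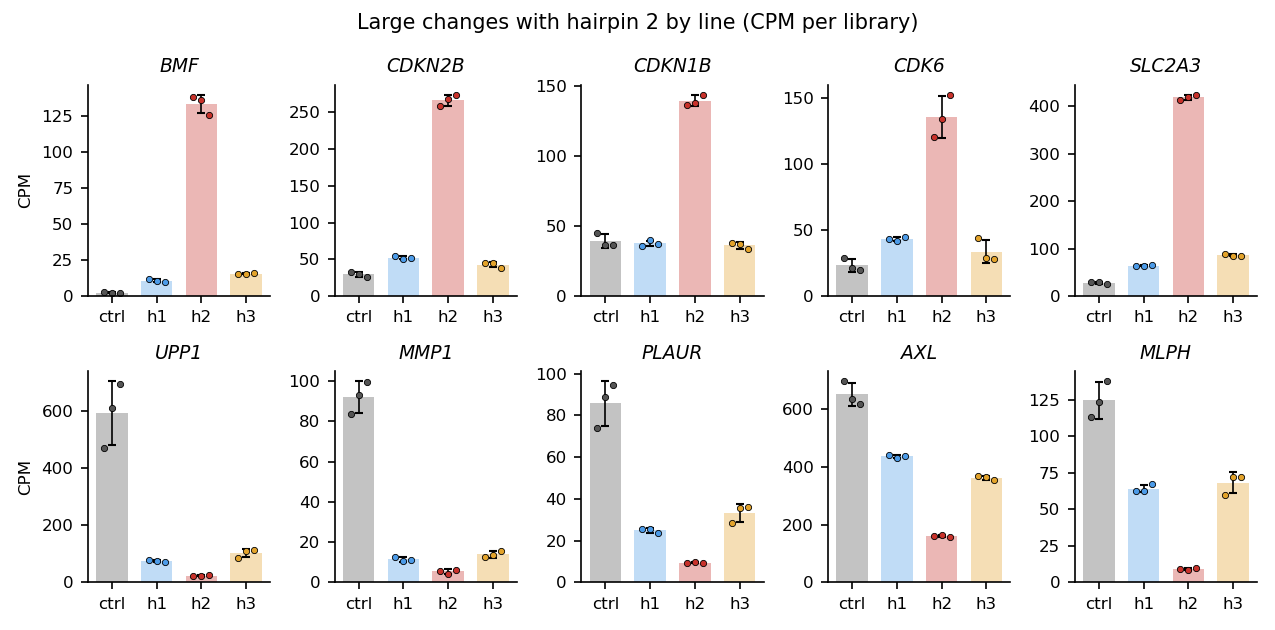
Levels in CPM (vertical axes, starting at 0) of 10 genes with large differences in the control line (ctrl) and the lines with hairpin 1, 2 and 3 (h1, h2, h3). Points are libraries, bars the mean of 3 and whiskers the SD. BMF stands at 126 to 138 CPM with hairpin 2 against 1.98 to 2.53 CPM in control, and UPP1 at 21.5 to 24.6 against 472 to 696 CPM.

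Interferon-stimulated genes rose together. Of 52 tested, 40 rose and 6 fell (median 0.93, length-adjusted 0.88). IRF1, a transcription factor of the response, went from 19.4, 24.7 and 22.6 to 80.0, 72.1 and 78.8 CPM (1.79 ± 0.11), and PARP14 from 61.3, 49.5 and 46.4 to 263, 258 and 276 CPM (2.34 ± 0.12). PARP9 rose by 1.74, the antiviral gene IFIT3 by 1.99, the RNA sensor IFIH1 (MDA5) by 2.20 and MX1 by 1.06. IFI44 went from 0.823, 0.711 and 1.28 to 8.66, 7.27 and 8.11 CPM (3.08 ± 0.19), and GBP2, a guanylate-binding protein gene, from 0, 0.194 and 0.128 to 4.30, 3.92 and 4.28 CPM (5.19 ± 0.35). SAMD9L, at 0 in the 3 control libraries, was at 1.07, 1.03 and 1.65 CPM, at least 20.7-fold higher, and at that bound the list's median was also 0.93. TRIM25, a ligase of RNA sensing, fell (-1.43 ± 0.10), and ISG15, which encodes a ubiquitin-like modifier, did not pass the test (-0.20 ± 0.22), though with the length trend as an offset it was called higher (0.42, adjusted p = 0.00324).

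The MHC class I pathway, which shows peptides to T cells, rose with them. Of 20 genes 16 rose and 1 fell (median 0.83, length-adjusted 0.94). HLA-B went from 121, 146 and 164 to 459, 471 and 471 CPM (1.70 ± 0.12) and B2M, the shared light chain, from 191, 195 and 197 to 477, 477 and 496 CPM (1.31 ± 0.06). HLA-F rose by 1.55, the peptide transporter subunit TAP1 by 1.08 and tapasin, TAPBP, by 0.98, while TAP2 fell by 0.33 on the log2 scale. HLA genes are alike in sequence and can share reads.

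These 2 lists were also higher than with the other hairpins. Of the 52 interferon genes 33 were called higher than with hairpin 1 and also than with hairpin 3, and of the 20 MHC genes 14, where 24.2% of all genes tested were. The median differences were 0.84 and 0.59 for interferon genes and 0.80 and 0.45 for MHC genes.

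The ISRE letters stood in 2.54% of all promoter windows and in 35 of 79 windows (44.3%) of these 2 lists. That share counts every member with a window, called or not. It describes the lists, and members with and without the motif were not compared. Among all 2556 genes higher than control and both other hairpins, 3.25% of windows held the letters. The stretches below show the motif, in capitals and on the strand opposite to the gene, before 3 genes that rose, chosen after their values were known: IFI44 (chr1:78649539-78649788, plus strand), RSAD2 (chr2:6877527-6877664, plus strand), which encodes viperin and rose by 2.81 ± 0.41, and IFIH1 (chr2:162318704-162318839, minus strand).
IFI44: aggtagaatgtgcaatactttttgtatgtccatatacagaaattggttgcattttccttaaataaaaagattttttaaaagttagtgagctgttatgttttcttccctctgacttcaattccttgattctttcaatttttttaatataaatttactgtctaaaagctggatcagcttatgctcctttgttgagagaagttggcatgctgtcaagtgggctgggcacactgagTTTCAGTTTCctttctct
RSAD2: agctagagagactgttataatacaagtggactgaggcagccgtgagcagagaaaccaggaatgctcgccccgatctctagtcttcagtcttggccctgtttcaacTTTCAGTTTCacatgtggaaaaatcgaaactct
IFIH1: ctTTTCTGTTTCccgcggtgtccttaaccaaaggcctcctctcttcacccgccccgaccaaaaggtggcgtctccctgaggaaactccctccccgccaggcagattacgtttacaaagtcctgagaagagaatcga

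NF-kB is a family of transcription factors that drives many inflammatory genes, and it is held in check by feedback genes that it switches on. Of 24 genes in that list 13 rose and 2 fell (median 0.25, length-adjusted 0.24), and 18 were called higher than with both other hairpins, where 24.2% of all genes were (medians 0.79 and 0.79). CYLD, a deubiquitinase that restrains the pathway, went from 81.2, 65.8 and 57.6 to 272, 272 and 299 CPM (2.04 ± 0.14). TRAF1 rose by 1.45, NFKB1 by 1.00, NFKBIA by 0.87 and SOD2 by 1.26, and IER3 fell (-1.10 ± 0.09).

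Cytokines split into rises and falls. TNF went from 1.01, 0.905 and 1.08 to 7.45, 6.37 and 7.78 CPM (2.84 ± 0.25), CSF1 from 5.57, 6.21 and 7.97 to 38.6, 40.1 and 39.1 CPM (2.58 ± 0.13) and IL32 from 224, 286 and 333 to 708, 680 and 701 CPM (1.31 ± 0.15). LIF, a cytokine of the IL-6 family, fell from 589, 571 and 573 to 115, 116 and 114 CPM (-2.33 ± 0.05), and the chemokines CXCL1, CXCL3 and CCL20 fell by 1.93, 2.24 and 3.90 on the log2 scale. Of 19 tested 9 rose and 8 fell, with a median of -0.72 (length-adjusted -0.19) that turned to 0.63 without the filter on low counts. Against hairpin 1 and hairpin 3 the medians were 0.72 and 0.37.

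**Figure D4:**
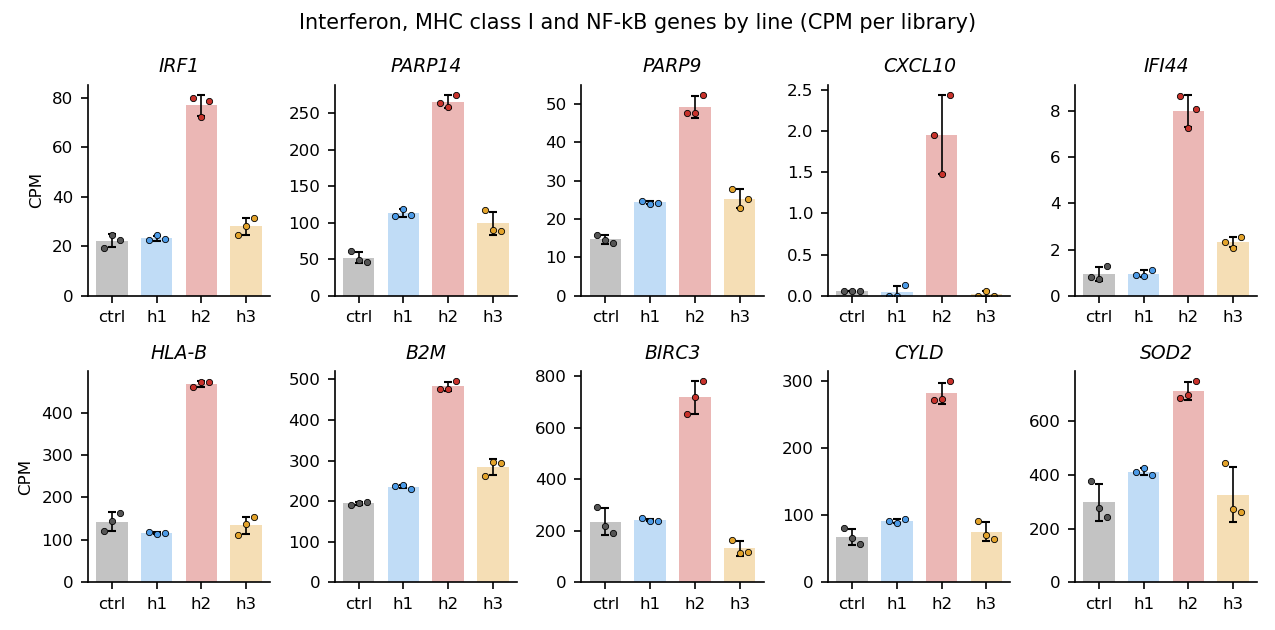
Levels in CPM (vertical axes, starting at 0) of 10 interferon, MHC class I and NF-kB genes in the control line (ctrl) and the lines with hairpin 1, 2 and 3 (h1, h2, h3). Points are libraries, bars the mean of 3 and whiskers the SD, and for each gene the 3 hairpin 2 libraries lie above the 9 others (HLA-B 459 to 471 CPM against 121 to 164 CPM in control).

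The amino acid response, the genes that ATF4 switches on when amino acids are short, fell with hairpin 2. Of 31 genes 27 fell and none rose (median -1.94, length-adjusted -1.84). ASNS, which makes asparagine, went from 513, 571 and 578 to 58.3, 55.8 and 58.9 CPM (-3.26 ± 0.07), PSAT1 of serine synthesis from 498, 485 and 432 to 49.2, 47.6 and 50.2 CPM (-3.27 ± 0.07), and SLC1A4, a neutral amino acid carrier, from 81.0, 77.8 and 80.9 to 5.77, 5.08 and 5.80 CPM (-3.85 ± 0.09). ATF4 itself was at -1.09 ± 0.11. The list's medians against hairpin 1 and hairpin 3 were -0.19 and -0.02. Its medians against control were -1.83 and -1.72 with those hairpins, which share the control libraries with hairpin 2. Single members still differed, with PSAT1 lower than with hairpin 1 (-1.51) and hairpin 3 (-1.55), and TRIB3, an ATF4 target, higher (0.67 and 1.03). The letters TGATGNAA stood in 5 of 36 promoter windows of the list (13.9%) and in 1.74% of all windows. Here the share counts every list member with a window, called or not, and members with and without the motif were not compared. Of 20 cytosolic aminoacyl-tRNA synthetases 17 fell and 1 rose (median -0.61, length-adjusted -0.70, and -0.33 on the log2(TPM + 1) scale), led by YARS1 at -2.70 ± 0.09. Synthetase medians were -0.04 and -0.23 against hairpin 1 and hairpin 3, and -0.52 and -0.50 against control with those hairpins.

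Of 22 NRF2 and glutathione genes 13 rose and 5 fell (median 0.50, length-adjusted 0.39). The heme-degrading enzyme HMOX1 went from 62.0, 75.4 and 87.5 to 251, 248 and 238 CPM (1.71 ± 0.15), and the iron-storage genes FTH1 and FTL rose by 1.22 and 1.25. Of 27 cholesterol and lipid genes 15 rose and 8 fell (median 0.36, length-adjusted 0.21), with HMGCS1 from 66.9, 58.0 and 51.8 to 302, 316 and 315 CPM (2.40 ± 0.12). Of 36 autophagy and lysosome genes 20 rose and 8 fell (median 0.30, length-adjusted 0.41), and 26 were called higher than with both other hairpins, against 24.2% of all genes. GABARAPL1, an autophagosome protein, went from 19.8, 17.5 and 19.3 to 138, 136 and 138 CPM (2.86 ± 0.10), while MAP1LC3B fell (-0.55). ER chaperones had 9 of 22 higher and 7 lower, and heat shock chaperones 8 of 19 higher and 9 lower. Their medians of -0.06 and -0.18 turned to 0.12 and 0.15 length-adjusted and to 0.38 and 0.27 on the log2(TPM + 1) scale.

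Outputs of the ERK pathway fell, with 18 of 28 lower and 5 higher (median -0.71, length-adjusted -0.87, and -0.18 on the log2(TPM + 1) scale). DUSP6, a phosphatase that ERK induces against itself, went from 222, 198 and 184 to 51.4, 51.4 and 50.2 CPM (-1.98 ± 0.08). The ETS factors ETV4 and ETV5 fell by 2.36 and 1.54 on the log2 scale, and the feedback gene SPRY2 by 1.17. Of the EGF family ligands AREG and EREG were at -2.0 and -1.37, and EGFR did not pass the test (-0.25), though it was at -1.18 with the length trend as an offset (adjusted p = 1.88e-09). The receptor kinase AXL went from 698, 637 and 620 to 162, 165 and 158 CPM (-2.01 ± 0.06).

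Genes of the matrix and its proteases fell in 12 of 22 cases and rose in 3 (median -0.73, length-adjusted -0.89, -0.35 without the filter on low counts and -0.16 on the log2(TPM + 1) scale). MMP1, a collagenase, went from 83.5, 93.1 and 99.4 to 5.71, 4.31 and 6.33 CPM (-4.08 ± 0.14), and PLAU, urokinase, from 197, 206 and 207 to 30.9, 30.2 and 27.9 CPM (-2.78 ± 0.07). Its receptor PLAUR was at -3.17 and MMP10 at -3.59, while the laminin chain LAMC1 rose (1.79 ± 0.11). Of 11 integrins 2 rose and 5 fell (median -0.42, length-adjusted -0.83, and 0.01 on the log2(TPM + 1) scale), with ITGAV at 2.60 ± 0.24 and its partner ITGB5 at -2.25 ± 0.07. A list of secreted factors known from senescent cells shares MMP1, PLAU, CXCL1 and AREG with the lists above. Of its 23 tested genes 19 fell and 1 rose (median -1.93, length-adjusted -1.66). The median was -1.15 without the filter on low counts and -1.01 on the log2(TPM + 1) scale. Against hairpin 1 and hairpin 3 the medians were -0.72 and -0.67. With those hairpins the medians against control were -1.09 and -1.07.

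Epithelial genes were split, with 9 of 30 higher and 14 lower (median -0.32, length-adjusted -0.38, and 0.11 on the log2(TPM + 1) scale). KRT8 went from 1089, 1348 and 1534 to 320, 317 and 311 CPM (-2.07 ± 0.12) and its partner KRT18 fell by 1.82 on the log2 scale, and the summed level of 8 gastric epithelial markers was 2599 to 3499 CPM in control and 1088 to 1124 CPM with hairpin 2. The desmosome genes DSC2 (1.79) and DSG2 (1.47) and the epithelial factors ELF3 (1.18) and GRHL2 (1.40) rose. Other genes of these kinds did not all follow. With the length trend as an offset, the desmosome genes PKP3, JUP, DSP and PKP2 were at -0.90, -0.23, -0.06 and 0.49. The epithelial factors ESRP1 and ESRP2 were at -1.04 and -0.47 in that fit. Of 13 mesenchymal and EMT markers 3 rose and 4 fell, with a median of -0.15 that was 0.02 length-adjusted and 0.14 on the log2(TPM + 1) scale. VIM, vimentin, the member that fell most, went from 13, 14.5 and 15.9 to 1.54, 2.57 and 3.23 CPM (-2.55 ± 0.19). Of 14 gastrointestinal lineage factors 5 rose and 3 fell (median 0.21, length-adjusted 0.04, and 0.43 on the log2(TPM + 1) scale). The endoderm factor FOXA2, the member that fell most, fell by 3.08 on the log2 scale, and GATA6 rose by 1.05.

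TGF-beta and BMP genes rose in 19 of 31 cases and fell in 9 (median 0.47, length-adjusted 0.22). BMP2 went from 13.5, 12.6 and 11.4 to 139, 147 and 157 CPM (3.56 ± 0.10), against means of 22.8 CPM with hairpin 1 and 21.7 CPM with hairpin 3. The inhibitory SMAD7 and SMAD6 rose by 2.58 and 3.11, and the receptor TGFBR2 by 1.60. The neighbours of SKA2 on chromosome 17q22 to q23 moved in both directions: of 30 tested, SKA2 included, 15 rose and 8 fell (median 0.38, length-adjusted 0.12), with RNF43, a Wnt pathway ligase, at 2.55 and YPEL2 at 2.16.

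Ribosome genes fell by amounts that depended on the length trend. Of 79 cytosolic ribosomal protein genes, which have short transcripts, 78 fell (median -0.77), but length-adjusted the median was -0.21, with 51 lower and 4 higher. The respiratory chain changed in the same way, from a median of -0.51 with 45 of 61 lower and 1 higher to -0.06 with 23 lower and 14 higher. Of 31 MYC and ribosome biogenesis genes 23 fell and 2 rose (median -0.63, length-adjusted -0.49, and -0.19 on the log2(TPM + 1) scale). MYC fell by 0.48 on the log2 scale, nucleolin, NCL, by 0.84 and the methyltransferase FBL by 1.15.

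**Figure D5:**
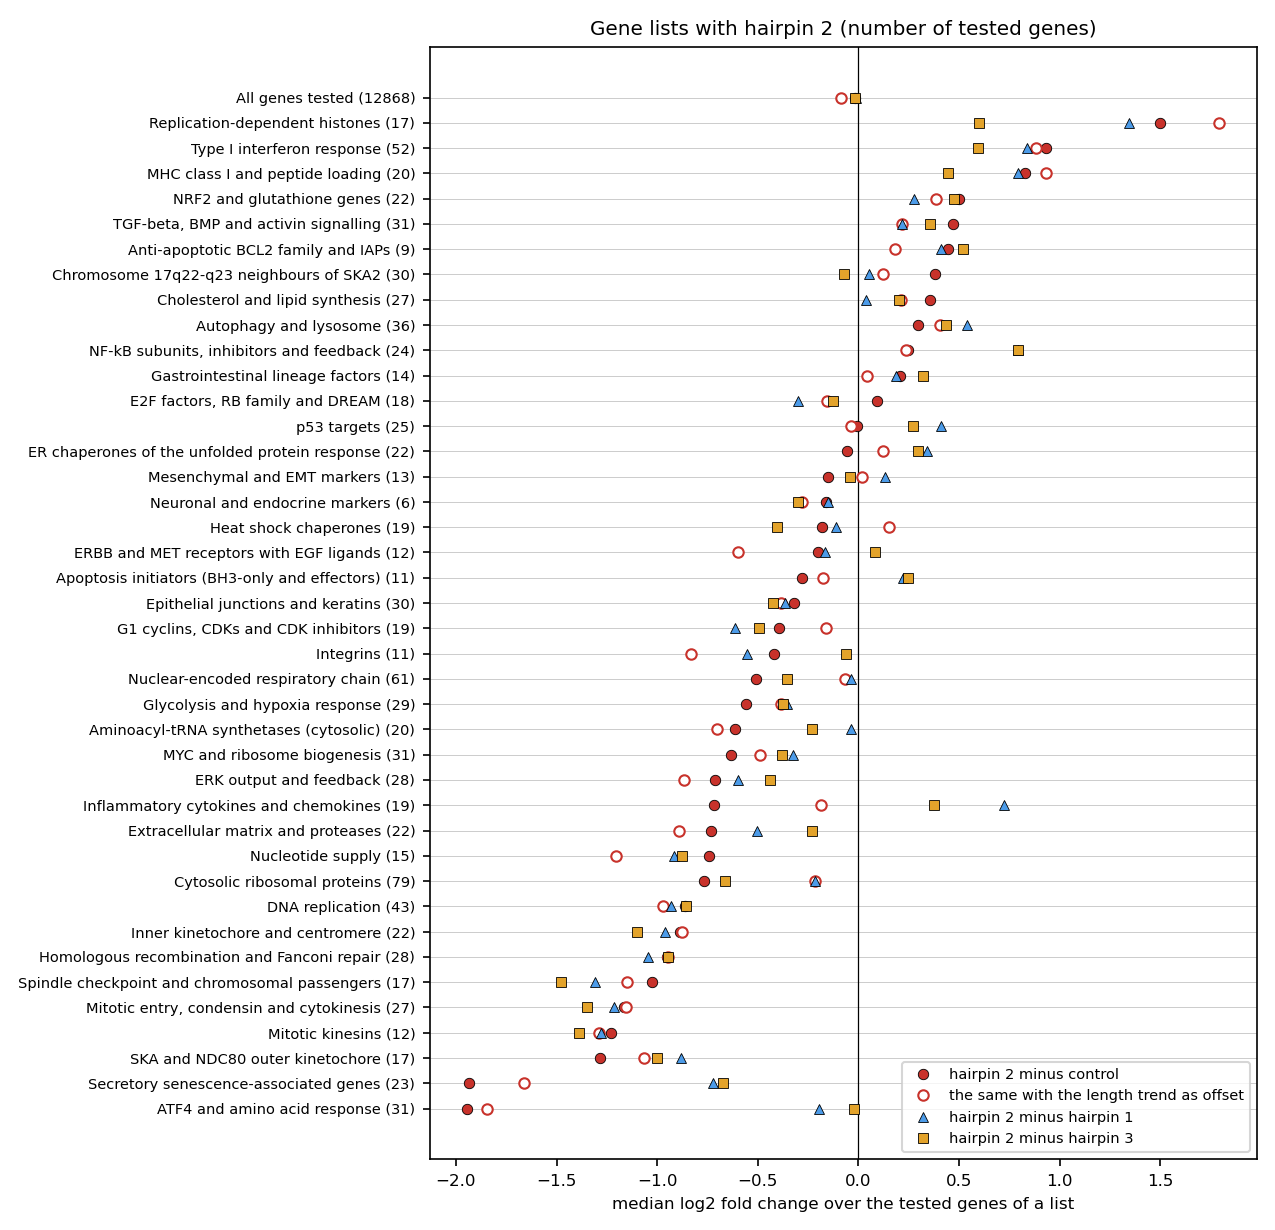
Median log2 fold change (horizontal axis) over the tested genes of each list (number in brackets) for hairpin 2 against control (red), the same with the length trend as an offset (open), and hairpin 2 against hairpin 1 (triangles) and hairpin 3 (squares). Mitotic and replication lists lie between -0.86 and -1.48 against all 3 other lines, the interferon and MHC lists between 0.45 and 0.93, and the ATF4 list at -1.94 against control but at -0.19 and -0.02 against the other hairpins.

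Across all genes, 3116 were higher (24.2%) and 3222 lower (25%) with hairpin 2 than with hairpin 1 and also than with hairpin 3. When the control is added, 2556 genes were higher (19.9%) and 2595 lower (20.2%) than all 3 other lines. By the smaller of the contrasts with hairpins 1 and 3, the 8 genes that stood highest included SERPINB7, a serpin, at 5.97, 6.11 and 6.85 CPM against means of 0.383, 0.0653 and 0.190 CPM in control and with hairpins 1 and 3. UBD, the ubiquitin-like gene FAT10, stood at 5.37, 4.89 and 4.42 CPM against 0.342, 0.0645 and 0.255 CPM, and ANKRD1, known as a target of YAP, at 39.0, 37.2 and 42.0 CPM against 5.45, 2.07 and 3.49 CPM. UBD overlaps GABBR1 on the same strand, and reads of the pair can be shared. For ELAPOR1, IL16, CHST11 and the uncharacterised LOC102723996 the smaller of these contrasts was 3.38, 3.65, 4.74 and 4.10 on the log2 scale. The span of IL16 overlaps that of STARD5 on the other strand, and whether their exons overlap was not tested. MYCT1, the eighth, differed mainly through the other hairpins: it stood at 2.85, 1.81 and 2.62 CPM in control and 3.16, 4.50 and 3.95 CPM with hairpin 2 (0.67 ± 0.23), against 0.0429 and 0.171 CPM, and it lost its call against control without control replicate 2 or hairpin 2 replicate 2 (edgeR adjusted p = 0.0838 and 0.0788).

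On the low side, IGF2 and P2RY11 were again the most distinct. MLPH, melanophilin, a carrier of pigment vesicles, stood at 9.26, 8.30 and 10.1 CPM with hairpin 2 against means of 125 CPM in control, 64.2 CPM with hairpin 1 and 68.1 CPM with hairpin 3. PEG10, an imprinted gene of retroviral origin, was at 0.537, 0.707 and 0.593 CPM against means of 3.25, 8.22 and 4.53 CPM in control and with hairpins 1 and 3. Its span overlaps that of SGCE on the other strand, and overlap of exons was not tested. FNDC10, RCN3 and GAMT, the last of creatine synthesis, were at 0.440, 0.241 and 0.218 CPM on average with hairpin 2 against 4.62, 3.97 and 1.60 CPM in control. MANSC4 was at 0.503 CPM, against 1.09 CPM in control and 4.88 and 4.71 CPM with the other hairpins, and lost its call against control with the length trend as an offset (adjusted p = 0.0582).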

How the data were processed

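Trizol RNA was selected for poly(A), fragmented and primed at random, per the labels' protocols, which name no step that marks the strand. HISAT, Bowtie2, RSEM, DESeq2 and the build GRCh38.p13 are named in the submitters' processing notes. Roles and versions were not given in the sources used here. Per the file headers, the deposited table holds the expected count, the FPKM and the TPM of each gene in 12 libraries. Another 15 columns, averages over groups, were set aside.

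Expected counts were rounded and fitted with edgeR 4.0.16 (R 4.3.3, TMM scaling, filterByExpr, 1 factor for the 4 lines, quasi-likelihood test with 8 residual degrees of freedom, biological coefficient of variation 0.111). Transcript length was taken from counts and FPKM, and the length-adjusted fit used a lowess trend per library (span 0.3) as offset. CPM are per library total after TMM, except the summed marker levels, which are per library total without TMM. Alternatives were RLE scaling, DESeq2 1.42.0, limma 3.58.1 on log2(TPM + 1), other filters, a replicate block, fits without single libraries and, added after seeing the data, control replicate 1 or hairpin 3 replicate 1 as the only library of its line. The scripts were tested on simulated data. Gene positions are from GENCODE v29 on GRCh38.

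The gene lists and the comparison were chosen with earlier results of these data known. Named genes were SKA2, SKA1, SKA3 and PRR11, the 12 largest rises and 12 largest falls that were called, averaged 1 CPM or more in the 6 libraries and did not overlap between groups, the 8 in each direction furthest from both other hairpins, by the smaller contrast, among genes called in 1 direction against all 3 other lines, beyond their 9 libraries and with at least 1 CPM on average over 12, and, for each list, up to 6 members with the smallest adjusted p and any named for their role. Intervals and floors cover counting error only. Most list members are counted but not named, and a few results are not reported here.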

Additional observations from a re-analysis of the deposited data

Results flagged for a closer look

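Differences between hairpin 2 and the other hairpins were tested as direct contrasts of the lines, in the fit of all 12 libraries, so control libraries enter the spread but not the difference. In edgeR's quasi-likelihood test 3116 genes were higher and 3222 lower with hairpin 2 than with each of the other hairpins. SKA1 was lower than with hairpin 1 and hairpin 3 by log2 differences of -1.15 and -1.38, SKA3 by -1.82 and -2.04, and PRR11 by -0.53 and -0.58, while SKA2 was not called different from either. Each hairpin is 1 line, so hairpin and line cannot be told apart.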

How the results depend on the processing

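The counts of genes called kept within 1.5 times of the values above with RLE scaling, DESeq2, other filters, only the 6 libraries compared and a replicate block. On log2(TPM + 1) with limma, 2694 genes were lower, 504 of them at least 2-fold, and 1564 were lower than all 3 other lines. With the length trend as offset 1169 genes were at least 2-fold higher, and 7450 calls were shared with the reported fit. The cause of these shifts was not tested. Deviations of libraries with the same replicate number in control and hairpin 2 had r = -0.20, 0.06 and -0.25. Control replicate 1 with hairpin 2 replicate 3 had r = 0.25. With 3 libraries a side, these values cannot show whether the numbers mark a shared preparation. The replicate block gave 4768 higher and 4867 lower genes, with 2606 and 2640 beyond all 3 other lines.

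Leaving out 1 control or hairpin 2 library at a time (hairpin 1 and hairpin 3 libraries were all kept) gave 4331 to 4911 higher and 4511 to 4965 lower genes, 1641 to 2261 and 1480 to 1890 at least 2-fold, and 2251 to 2701 and 2168 to 2710 beyond all 3 other lines. Of the 41 named genes 40 to 41 stayed called, and 20 to 24 lists had a median of at least 0.5 in size (21 as reported). With control replicate 1, whose length slope was nearest to hairpin 2, as the only control, 3493 genes were higher and 3803 lower, and 37 named genes were called. With hairpin 3 replicate 1 as the only library of its line, 2175 and 2117 genes were beyond all 3 other lines.

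Directions that turned among values larger than their spread between libraries were these. On log2(TPM + 1), PRR11 was at 0.075, and list medians were 0.0105 for G1 genes, 0.38 for ER chaperones, 0.27 for heat shock, 0.097 for ERBB receptors and ligands, 0.0087 for integrins, 0.11 for epithelial genes and 0.15 for neuronal markers. With the length trend as offset, ER chaperones were at 0.12 and heat shock chaperones at 0.15. Without the filter on low counts, cytokines were at 0.63 and ERBB genes at 0.017. With at least 1 CPM in 3 libraries, neuronal markers were at 0.17. Without 1 such library at a time, ERBB genes ranged from -0.279 to 0.025 (the last without control replicate 1) and neuronal markers from -0.235 to 0.0566 (the last without control replicate 3). With control replicate 1 as the only control, ER chaperones were at 0.024 and neuronal markers at 0.093. Medians within that spread also turned: E2F and RB genes to -0.16 (length offset), p53 targets to 0.39, apoptosis initiators to 0.16 and mesenchymal markers to 0.14 (log2(TPM + 1)), among others. The cause of these turns was not tested. Genes with 3 or fewer counts in a group are limited by depth, and their intervals cover counting error only.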
